A study of Mus musculus with 4 samples.

Results

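Neurogliaform cells and their close relatives are inhibitory neurons of the cortex that carry the membrane protein gene Lamp5 and are densest in the most superficial layer. They release GABA into the surrounding tissue as a cloud rather than at single contacts, so they act on nearby dendrites through slow GABA-B receptors and through GABA-A receptors outside synapses. Many make the extracellular protein reelin and the peptide neuropeptide Y, and most arise from the caudal ganglionic eminence, an embryonic source of interneurons.

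Nuclei of this kind were taken from single-nucleus RNA sequencing of the cortex of 4 wild-type female C57BL/6JRj mice about 12 weeks old, 1 library per mouse. The pregnant group (n = 2) was taken at E13.5, a stage of embryonic development in mid-gestation, and the non-pregnant group (n = 2) had no pregnancy. The 4 libraries held 26816 barcodes, and 26350 nuclei were kept, with at least 500 genes and at most 5% of their UMIs (unique molecular identifiers, 1 per captured RNA molecule) from mitochondrial genes. A Lamp5-gated nucleus had at least 3 UMIs of Gad1 and Gad2 together, at least 1 of Lamp5 and at least 2 of Sv2c. It had at most 1 UMI of Slc17a7, 0 of Slc17a6, at most 1 of Vip and at most 3 of Sst. In all, 275 of the 26350 kept nuclei passed, 63 and 70 in the pregnant libraries and 81 and 61 in the non-pregnant libraries. The nuclei were thus chosen by the measured UMI counts of these 8 genes, whose levels are no result here.

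The gate cut through thinly counted nuclei at 2 of its limits. Of the nuclei inside, 101 had exactly 1 Lamp5 UMI, and 66 nuclei with none met every other limit. For Sv2c, 30 nuclei stood at 2 UMIs and 39 were left out at 1. Few stood near the other limits, with 21 at 1 Vip UMI and 5 left out at 2, and 37 at 1 Slc17a7 UMI and 4 left out at 2. Lamp5-gated nuclei held 944073 and 1009397 UMIs in the pregnant libraries and 990120 and 1025281 in the non-pregnant libraries. Their median depth was 13426 and 13325 UMIs in the pregnant libraries, against 11922 and 15963 in the non-pregnant libraries. Median depth thus did not separate the groups. Nuclei over 2 times the median of their library numbered 3 and 5 in the pregnant libraries and 1 and 2 in the non-pregnant libraries, with no overlap. Across libraries 109 barcodes occurred more than once, and 0 of them were Lamp5-gated. A score against simulated doublets marked 2 and 1 Lamp5-gated nuclei in the pregnant libraries and 1 and 0 in the non-pregnant libraries, and these were kept.

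Most marker genes outside the gate carried the label. Levels are in CPM, in which a gene's UMIs are scaled to the summed UMIs of the same nuclei of that library, with TMM normalisation. Reln, which encodes reelin, had 1901 and 2149.9 CPM in the pregnant libraries, against 1551 and 1720.2 in the non-pregnant libraries, and it lay at 448 to 484 CPM in the 2089 other GABAergic-gated nuclei. Kit, a receptor tyrosine kinase gene of these cells, had 393 and 376 CPM in the pregnant libraries, against 427 and 431 in the non-pregnant libraries, and lay at 36.1 to 58.1 CPM in the other GABAergic nuclei. Ndnf, a secreted protein of superficial-layer interneurons, had 205 and 193 CPM in the pregnant libraries, against 105 and 163 in the non-pregnant libraries, with 7.87 to 16.1 CPM in the others. The neuropeptide Y gene Npy had 174 and 156 CPM in the pregnant libraries, against 243 and 145 in the non-pregnant libraries, with 27.2 to 51 CPM in the others. In each of these 4 genes every Lamp5-gated library lay above every library of the other GABAergic nuclei. The phosphodiesterase gene Pde11a, the carbonic anhydrase gene Car4, the transcription regulator gene Id2 and the complexin gene Cplx3 did the same. Eya4 went against the label, at 13 to 17.8 CPM in Lamp5-gated nuclei and 202 to 293 CPM in the others, and Egln3 was lower too, at 3.84 to 4.95 CPM and 5.34 to 7.44 CPM.

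**Figure D1:**
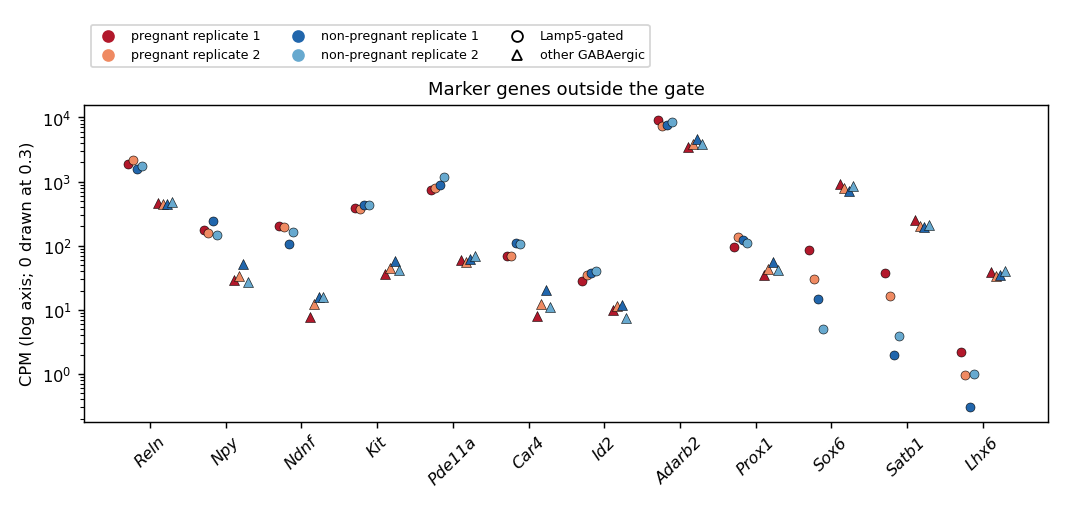
Level of 12 marker genes (CPM, log axis) in each library, circles for Lamp5-gated and triangles for other GABAergic-gated nuclei, red for pregnant and blue for non-pregnant libraries. The first 9 genes lie higher in Lamp5-gated nuclei, and Sox6, Satb1 and Lhx6 lie lower.

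Lineage markers were mixed. Of 8 markers of the caudal ganglionic eminence, Adarb2, Prox1, Nr2f1 and Sp8 were higher in every Lamp5-gated library than in any library of the other GABAergic nuclei, Nr2f2 overlapped, and Npas3, Npas1 and Htr3a were lower in every library. Adarb2, an RNA-editing family gene of that lineage, had 9217 and 7482 CPM in the pregnant libraries, against 7541 and 8603 in the non-pregnant libraries, with 3523 to 4668 CPM in the other GABAergic nuclei. Prox1, a homeobox gene of the same lineage, lay at 94.5 to 136 CPM in Lamp5-gated and 35.2 to 56.2 CPM in the other GABAergic nuclei. Npas3, a transcription factor gene of the same list, lay at 541 to 1364 CPM in Lamp5-gated and 1629 to 1798 CPM in the other GABAergic nuclei. Nxph1, a secreted neurexin ligand gene placed in the medial lineage list, was also high, at 2769.6 to 4136 CPM in Lamp5-gated and 1923 to 2405 CPM in the other GABAergic nuclei. Lhx6, a homeobox gene of the medial ganglionic eminence, gave 2 and 1 UMIs in the pregnant libraries and 0 and 1 in the non-pregnant libraries. That is 3.17% and 1.43% of Lamp5-gated nuclei in the pregnant libraries, and 0% and 1.64% in the non-pregnant libraries, where the 0 of 81 nuclei allows a share of up to 3.70% by the limit of 3 counts, and up to 4.53% by the Wilson 95% interval. Pvalb-gated nuclei, which should hold Lhx6, had it in 55.8% and 52.6% in the pregnant libraries and 44.6% and 49.5% in the non-pregnant libraries. Excitatory nuclei, which should lack it, had it in 0.408% and 0.60% in the pregnant libraries and 0.366% and 0.104% in the non-pregnant libraries. The groups overlapped in the Lhx6 share of Lamp5-gated nuclei, which was 2.30% ± 1.23 in pregnant and 0.820% ± 1.16 in non-pregnant libraries (SD, n = 2 each, two-sided exact permutation p = 0.667).

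The share of Lamp5-gated nuclei overlapped between the groups. They made up 0.961% and 1.05% of kept nuclei in the pregnant libraries, against 1.18% and 0.974% in the non-pregnant libraries. The means were 1.00% ± 0.0607 in pregnant and 1.08% ± 0.148 in non-pregnant libraries (SD, n = 2 each), and the groups overlapped (two-sided exact permutation p = 0.667, where 0.333 is the smallest p that 2 against 2 allows). With a stricter gate (no Vip, Sst or Pvalb UMI) the shares did not overlap, at 0.824% and 0.808% in the pregnant libraries and 0.95% and 0.830% in the non-pregnant libraries (exact permutation p = 0.333). Among GABAergic-gated nuclei they made up 10.6% and 12.5% in the pregnant libraries, against 12.8% and 10.5% in the non-pregnant libraries. With these counts the Wilson 95% interval of a single library was as wide as 0.953% to 1.47% of kept nuclei, so a modest difference was not detectable at this depth. These intervals cover counting error only.

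The shares of nuclei with Ndnf, Npy and Reln differed in how the groups lay before and after thinning, which draws the same number of UMIs from each nucleus. Ndnf gave a UMI in 55.6% and 64.3% of Lamp5-gated nuclei in the pregnant libraries, against 35.8% and 47.5% in the non-pregnant libraries, with no overlap (two-sided exact permutation p = 0.333, the smallest possible). Thinned to 5000 UMIs per nucleus, the Ndnf shares were 36.5% and 48.6% in the pregnant libraries and 28.4% and 37.7% in the non-pregnant libraries, which overlap. Npy ran the other way, in 68.3% and 65.7% of nuclei in the pregnant libraries and 84.0% and 75.4% in the non-pregnant libraries. The Npy shares stayed apart after thinning, at 50.8% and 35.7% in the pregnant libraries and 63.0% and 54.1% in the non-pregnant libraries, while the summed Npy level overlapped between the groups. Reln gave a UMI in 69.8% and 85.7% of nuclei in the pregnant libraries and 65.4% and 70.5% in the non-pregnant libraries, which overlap. After thinning the Reln shares were 68.3% and 82.9% in the pregnant libraries and 63.0% and 65.6% in the non-pregnant libraries, with no overlap (two-sided exact permutation p = 0.333). In this draw at matched depth, then, Npy and Reln did not overlap between the groups and Ndnf did. The draw was random and was not repeated. For Reln the nearest libraries were close, with 43 of 63 nuclei in pregnant replicate 1 and 40 of 61 in non-pregnant replicate 2. Excitatory nuclei, with median depths of 15448 to 20655 UMIs, carried Ndnf in 0.419% to 0.726%, Npy in 4.25% to 7.14% and Reln in 23.0% to 25.2%. How much of the Reln share came from RNA outside the nucleus was not tested. Lamp5-gated nuclei with 10 or more Reln UMIs numbered 39 of 63 and 51 of 70 in the pregnant libraries. In the non-pregnant libraries they numbered 39 of 81 and 34 of 61.

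Reln and Ndnf nested. Nuclei with both numbered 34 and 45 in the pregnant libraries and 29 and 29 in the non-pregnant libraries. Nuclei with Reln alone numbered 10 and 15 in the pregnant libraries and 24 and 14 in the non-pregnant libraries, and only 1 nucleus, in pregnant replicate 1, had Ndnf alone. Nuclei with neither numbered 18 and 10 in the pregnant libraries and 28 and 18 in the non-pregnant libraries. None of the 3 genes was called between groups by edgeR's quasi-likelihood test: the log2 fold change was 0.58 (adjusted p = 0.157) for Ndnf, 0.32 (adjusted p = 0.371) for Reln and -0.23 (adjusted p = 0.887) for Npy.

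Expression was compared on the summed counts of Lamp5-gated nuclei, pregnant over non-pregnant, with edgeR's quasi-likelihood test and Benjamini-Hochberg adjustment over the 8955 genes that passed the count filter. Genes with adjusted p below 0.05 were called, and only these are said to have risen or fallen. Of the 8955 genes, 44 were called (0.491%), 35 of which rose (0.391%) and 9 fell (0.101%). The median log2 fold change was 1.08 among the 35 and -0.62 among the 9. In all 44 the groups did not overlap, which was also so in 37.1% of all tested genes. Of the 35 risen genes, 19 were seen in under 50% of the nuclei of both pregnant libraries, so many were carried by a minority of Lamp5-gated nuclei. None of the 9 fallen genes was so sparse in the non-pregnant libraries. Without pregnant replicate 1, 3 genes were called, 0 of them among the 44. All 44 kept their sign without it, which was largely fixed by the choice, since their groups did not overlap. As examples picked from the 44, the log2 fold change was then 0.85 for Grm7 and 0.79 for Camk1d. Over all alternatives that of Grm7 ran as low as 0.36. DESeq2 called 13 genes, 12 of them among the 44, and 0 of the 13 fell. With 61 nuclei per library 25 genes rose and 0 fell. A stricter gate (no Vip, Sst or Pvalb UMI) and a looser gate (Sv2c at 1 UMI or more) each gave 2 fallen genes. A replicate block gave 3, and leaving out nuclei of high doublet score gave 14. With the gate applied to thinned nuclei 2 genes were called, 0 of them among the 44, and Schip1, Cntn6 and Grm8 changed sign. Of the 44, 25 were still called without the Sox6-bearing nuclei described below, and 2, Ano4 and St8sia4, in Reln-bearing nuclei alone, both alternatives chosen after the data were seen.

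**Figure D2:**
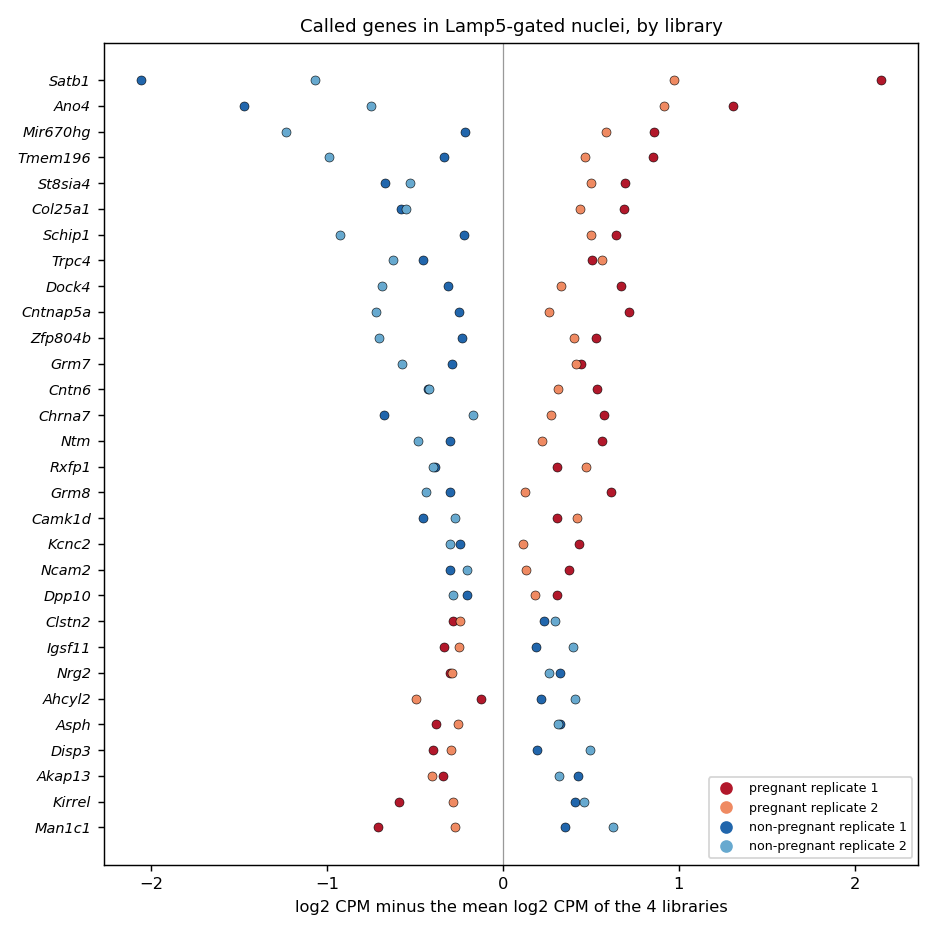
Level of 30 called genes in each library, as log2 CPM minus the mean over the 4 libraries (Mertk, with 0 UMIs in the non-pregnant libraries, is left out). In each gene both red points (pregnant) lie on one side of both blue points (non-pregnant), and Satb1 and Ano4 spread furthest.

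Among receptor genes, those for a relaxin, a nicotinic and 2 metabotropic glutamate receptors rose. Rxfp1 encodes the receptor for relaxin, a hormone of pregnancy. It had 159 and 178 CPM in the pregnant libraries, against 98 and 97.1 in the non-pregnant libraries. The level was higher in both pregnant libraries, and edgeR's quasi-likelihood test called it (log2 fold change 0.80, SE 0.159, adjusted p = 0.0106). Rxfp1 UMIs lay in 24 of 63 and 30 of 70 nuclei in the pregnant libraries and in 23 of 81 and 18 of 61 in the non-pregnant libraries. Of 19 list members for hormones of pregnancy, 11 were tested and Rxfp1 alone was called, beside 0.491% of all tested genes. The median log2 fold change was -0.10 in the list against -0.0015 in all tested genes. The growth hormone receptor gene Ghr had 189 and 177 CPM in the pregnant libraries, against 236 and 211 in the non-pregnant libraries, and was not called (adjusted p = 0.682 in edgeR's test). Nr3c2, the mineralocorticoid receptor gene, had 395 and 283 CPM in the pregnant libraries, against 337 and 393 in the non-pregnant libraries, and the groups overlapped. Esr2, for an oestrogen receptor, and Rxfp2, for a relaxin-family receptor, had 0 UMIs in Lamp5-gated nuclei.

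Rxfp1 lay mostly in the Reln-bearing nuclei. In Lamp5-gated nuclei with a Reln UMI it had 227 and 203 CPM in the pregnant libraries, against 139.6 and 129 in the non-pregnant libraries. In those without Reln it had 3.60 and 0 CPM in the pregnant libraries, against 12.3 and 11 in the non-pregnant libraries. Among Reln-bearing nuclei, Rxfp1 was seen in 52.3% and 50.0% in the pregnant libraries and 39.6% and 37.2% in the non-pregnant libraries, and after thinning in 34.1% and 38.3% in pregnant against 32.1% and 27.9% in non-pregnant libraries. Pvalb-gated nuclei, which had median depths of 15051 to 19838 UMIs, carried it in 1.30% and 2.56% in the pregnant libraries and 1.35% and 0% in the non-pregnant libraries, the 0 of 93 nuclei allowing up to 3.23%. Within Reln-bearing nuclei both pregnant libraries were again higher, but edgeR's test on those nuclei alone gave a log2 fold change of 0.67 (adjusted p = 0.169), which is no call. With the looser gate (Sv2c at 1 UMI or more) it gave 0.52 (adjusted p = 0.273), with the gate on thinned nuclei 0.48 (adjusted p = 0.994), without pregnant replicate 2 0.70 (adjusted p = 0.0749), and DESeq2 gave 0.80 (adjusted p = 0.405), none of them a call.

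**Figure D3:**
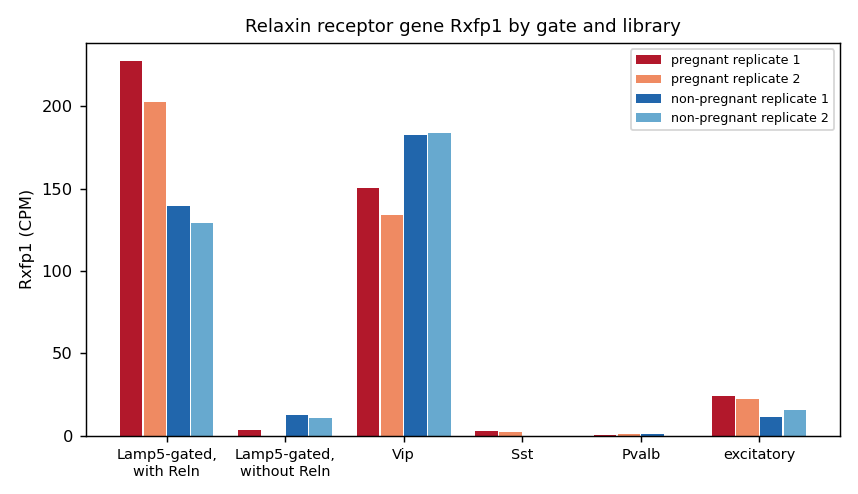
Level of Rxfp1 (CPM, bars from 0) in each library for 6 gates, red for pregnant and blue for non-pregnant libraries. In Lamp5-gated nuclei with Reln both pregnant bars stand above both non-pregnant bars, and in Vip-gated nuclei both stand below.

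Chrna7 encodes the alpha7 subunit of nicotinic acetylcholine receptors, through which acetylcholine excites these cells. It had 510.3 and 414 CPM in the pregnant libraries, against 215 and 305 in the non-pregnant libraries. Both pregnant libraries were higher, and edgeR's test called it (log2 fold change 0.84, SE 0.148, adjusted p = 0.00449). Of 41 genes for receptors of modulators and peptides, 11 were tested and Chrna7 alone was called, beside 0.491% of all tested genes. The list median was 0.34. Within Reln-bearing nuclei Chrna7 had 641 and 454 CPM in the pregnant libraries, against 245 and 338 in the non-pregnant libraries, and edgeR's test there gave 0.90 (adjusted p = 0.0603), no call. In those without Reln it had 220 and 128 CPM in the pregnant libraries, against 154 and 221 in the non-pregnant libraries, which overlap. Chrna7 was also not called with the stricter gate, the looser gate or the gate on thinned nuclei.

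Grm7 and Grm8 encode presynaptic metabotropic glutamate receptors that damp release. Grm7 had 467 and 457 CPM in the pregnant libraries, against 281 and 231 in the non-pregnant libraries (log2 fold change 0.86, SE 0.131, adjusted p = 8.01e-04, edgeR's quasi-likelihood test). Grm8 had 177 and 126 CPM in the pregnant libraries, against 94 and 85.2 in the non-pregnant libraries (log2 fold change 0.76, SE 0.176, adjusted p = 0.0377). Both rose, and no other of the 6 tested members of the family was called, beside 0.491% of all tested genes. The list median was 0.81, with 4 members higher and 2 lower. Grm8 lay in 20 and 21 nuclei of the pregnant libraries and 20 and 15 of the non-pregnant libraries, and 1 nucleus held 27.0% of its UMIs in pregnant replicate 1 and 36.0% in non-pregnant replicate 2.

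The promoters of Chrna7, which rose, and Igsf11, an adhesion gene that fell, are shown as examples of the 2 directions, each as the 250 bases before the start (RefSeq, build GRCm38.p6, gene strand). Capitals mark a GC box, the letters GGGCGG on either strand.
Chrna7, chr7:63212527-63212776, minus strand: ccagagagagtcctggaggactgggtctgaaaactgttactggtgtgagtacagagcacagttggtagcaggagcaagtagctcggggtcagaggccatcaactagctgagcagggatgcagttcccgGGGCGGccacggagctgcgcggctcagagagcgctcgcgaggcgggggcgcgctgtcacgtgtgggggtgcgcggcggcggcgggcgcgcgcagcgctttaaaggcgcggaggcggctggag
Igsf11, chr16:38902095-38902344, plus strand: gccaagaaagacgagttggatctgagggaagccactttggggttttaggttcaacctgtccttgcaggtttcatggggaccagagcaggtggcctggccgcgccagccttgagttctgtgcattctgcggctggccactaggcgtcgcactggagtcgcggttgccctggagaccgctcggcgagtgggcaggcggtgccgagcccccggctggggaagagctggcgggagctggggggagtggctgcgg
Chrna7 holds 1 GC box and Igsf11 holds none, and neither holds a cAMP response element (TGACGTCA) or a TATA box (TATAAA), searched on both strands. Of the 31 called genes that the text names, 26 matched the promoter table, and at the first listed start of each, 15 held a GC box (57.7%), 1 a cAMP response element (3.85%) and 1 a TATA box (3.85%). Among all 27025 genes of the table, whether or not they passed the count filter here, these letters stood in 32.9%, 1.62% and 13.0%. The called genes all passed that filter, and the share among tested genes alone was not counted. These matches are descriptions of the letters and were not tested.

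Of 40 tested potassium channel genes 2 rose, against 0.391% of all tested genes, none fell, and the median was 0.096. Kcnc2, a fast-closing potassium channel gene of the Kv3 family, had 595 and 477 CPM in the pregnant libraries, against 372 and 359 in the non-pregnant libraries (log2 fold change 0.56, SE 0.129, adjusted p = 0.0377, edgeR's test). Dpp10, which encodes a partner protein of Kv4 potassium channels, had 2064 and 1890.5 CPM in the pregnant libraries, against 1446 and 1372 in the non-pregnant libraries (log2 fold change 0.50, SE 0.115, adjusted p = 0.0377). Trpc4, a cation channel gene, had 93.4 and 97.1 CPM in the pregnant libraries, against 48 and 42.6 in the non-pregnant libraries (log2 fold change 1.08, SE 0.20, adjusted p = 0.00518). Each of the 3 was higher in both pregnant libraries. Ano4, of the anoctamin family of membrane proteins, had 61.9 and 47.1 CPM in the pregnant libraries, against 9.0 and 14.9 in the non-pregnant libraries (log2 fold change 2.18, SE 0.321, adjusted p = 5.83e-04). Like Satb1 and Mertk, which follow, Ano4 passed the count filter only through the pregnant libraries. It lay in 13 and 13 nuclei of the pregnant libraries and in 6 and 3 of the non-pregnant libraries, and 1 nucleus held 42.1% of its UMIs in pregnant replicate 1 and 60% in non-pregnant replicate 2. The membrane protein gene Tmem196 had 145 and 111 CPM in the pregnant libraries, against 64 and 40.6 in the non-pregnant libraries (log2 fold change 1.30, SE 0.205, adjusted p = 0.00122). Without Sox6-bearing nuclei, edgeR's test gave Kcnc2 0.32 (adjusted p = 0.438), which is no call. Without nuclei over 2 times the median depth it gave Ano4 1.40 (adjusted p = 0.126), also no call.

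Cell adhesion genes moved in both directions. Of 38 tested synaptic adhesion genes 2 rose and 2 fell, beside 0.391% and 0.101% of all tested genes. The list median was 0.18, against -0.0015 in all tested genes. The contactin gene Cntn6 had 295 and 254 CPM in the pregnant libraries, against 152 and 153 in the non-pregnant libraries (log2 fold change 0.86, SE 0.141, adjusted p = 0.00125, edgeR's test). The neurexin-family gene Cntnap5a had 142 and 104 CPM in the pregnant libraries, against 73 and 52.5 in the non-pregnant libraries (log2 fold change 0.97, SE 0.197, adjusted p = 0.0135). A pair of the list fell instead. Igsf11, an immunoglobulin-type synaptic adhesion gene, had 354 and 376 CPM in the pregnant libraries, against 509.9 and 589 in the non-pregnant libraries (log2 fold change -0.58, SE 0.125, adjusted p = 0.0263). The calsyntenin gene Clstn2 had 626 and 643 CPM in the pregnant libraries, against 897 and 936 in the non-pregnant libraries (log2 fold change -0.52, SE 0.117, adjusted p = 0.0324). Outside the list, the adhesion genes Ntm and Ncam2 rose. Ntm, for neurotrimin, had 676 and 533 CPM in pregnant against 372 and 327 CPM in non-pregnant libraries (log2 fold change 0.80, SE 0.132, adjusted p = 0.00125), and Ncam2 had 1266 and 1072 CPM in pregnant against 793 and 848 CPM in non-pregnant libraries (log2 fold change 0.52, SE 0.120, adjusted p = 0.0377). With the looser gate Cntn6 gave 0.50 (adjusted p = 0.246) and Ncam2 0.29 (adjusted p = 0.56), and without Sox6-bearing nuclei Cntnap5a gave 0.62 (adjusted p = 0.435), none of them a call in edgeR's test. Kirrel, of the nephrin-like adhesion proteins, fell, with 52.1 and 64.4 CPM in pregnant against 104 and 108 CPM in non-pregnant libraries (log2 fold change -0.84, SE 0.189, adjusted p = 0.0321).

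Signalling genes included 1 neuregulin. Nrg2 encodes neuregulin 2, a ligand of the ErbB4 receptor of interneurons. It had 301 and 304 CPM in the pregnant libraries, against 465 and 445 in the non-pregnant libraries, and fell (log2 fold change -0.58, SE 0.125, adjusted p = 0.0263, edgeR's test), and was seen in 57 and 67 nuclei in the pregnant libraries and 78 and 57 in the non-pregnant libraries. Of 6 tested neuregulin and ErbB genes it was the only one called, beside 0.491% of all tested genes, and the list median was 0.23. Camk1d, a calcium/calmodulin-dependent kinase gene, had 359 and 389 CPM in the pregnant libraries, against 212 and 241 in the non-pregnant libraries, and rose (log2 fold change 0.74, SE 0.132, adjusted p = 0.00395). It was among the few risen genes seen in nearly every nucleus, in 63 of 63 and 69 of 70 nuclei in the pregnant libraries and 73 of 81 and 57 of 61 in the non-pregnant libraries. Dock4, a Rac activator gene, had 241 and 190.3 CPM in pregnant against 122 and 94.1 CPM in non-pregnant libraries, and rose (log2 fold change 1.00, adjusted p = 0.00125 in edgeR's test). It was no longer called without Lhx6-bearing nuclei, at 0.63 (adjusted p = 0.0777), without Sox6-bearing nuclei, at 0.48 (adjusted p = 0.386), or without nuclei over 2 times the median depth, at 0.50 (adjusted p = 0.316). Schip1, for a partner of the protein schwannomin, had 267 and 242 CPM in pregnant against 147 and 90.2 CPM in non-pregnant libraries, and rose (log2 fold change 1.11, adjusted p = 0.00125); without nuclei over 2 times the median depth it gave 0.44 (adjusted p = 0.548), no call. Akap13, a scaffold gene for protein kinase A, had 82.5 and 78.8 CPM in pregnant against 140.0 and 129.8 CPM in non-pregnant libraries, and fell (log2 fold change -0.73, adjusted p = 0.0377).

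Other called genes act in the secretory pathway or the nucleus, or have less settled roles. St8sia4, which builds polysialic acid on NCAM, had 113 and 99 CPM in the pregnant libraries, against 44 and 48.6 in the non-pregnant libraries, and rose (log2 fold change 1.20, SE 0.196, adjusted p = 0.00125, edgeR's test). Man1c1, a Golgi mannosidase gene, had 41.3 and 55.7 CPM in the pregnant libraries, against 86 and 104 in the non-pregnant libraries, and fell (log2 fold change -0.95, SE 0.207, adjusted p = 0.0263). Asph, for an aspartate hydroxylase of the endoplasmic reticulum, had 177 and 193 CPM in pregnant against 289 and 286 CPM in non-pregnant libraries, and fell (log2 fold change -0.62, adjusted p = 0.0263). Ahcyl2, of the adenosylhomocysteinase family, had 241 and 186 CPM in pregnant against 305 and 349 CPM in non-pregnant libraries, and fell (log2 fold change -0.61, adjusted p = 0.0387). Zfp804b, a zinc finger gene, had 2365 and 2163 CPM in the pregnant libraries, against 1393 and 1005 in the non-pregnant libraries, and rose (log2 fold change 0.93, SE 0.132, adjusted p = 5.61e-04). Within Reln-bearing nuclei Zfp804b had 3238 and 2439 CPM in pregnant against 1783 and 1241 CPM in non-pregnant libraries, and in those without Reln 407 and 193 CPM in pregnant against 590.1 and 379 CPM in non-pregnant libraries. Both pregnant libraries were higher in nuclei with Reln, and the groups overlapped in those without; the difference between the 2 was not tested. The noncoding host gene Mir670hg had 114 and 94.2 CPM in pregnant against 54 and 26.8 CPM in non-pregnant libraries, and rose (log2 fold change 1.37, adjusted p = 0.00352). Mertk, a receptor gene of phagocytic glia, gave 28 UMIs in 2 and 5 nuclei of the pregnant libraries and 0 in the non-pregnant libraries, at least 9.63-fold higher against a floor of 3 counts over the group (adjusted p = 0.00622, edgeR's test). Mertk passed the count filter only through the pregnant libraries, so a tested difference could take only that direction. One nucleus held 90.9% of the Mertk UMIs of pregnant replicate 1.

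Oligodendrocyte markers were higher in both pregnant libraries and were not called. The summed level of 6 oligodendrocyte markers was 152 and 95.1 CPM in the pregnant libraries and 37.0 and 67.4 CPM in the non-pregnant libraries, and 0 of the 6 were absent from every library. That of 6 microglia markers was 29.3 and 111 CPM in the pregnant libraries and 49.0 and 36.7 CPM in the non-pregnant libraries, which overlap. Of 3 tested oligodendrocyte markers none was called, beside 0.491% of all tested genes. The nearest was the myelin gene Mbp, with 48.9 and 29.8 CPM in the pregnant libraries, against 8.0 and 22.8 in the non-pregnant libraries (adjusted p = 0.142 in edgeR's test). In the other GABAergic nuclei the oligodendrocyte sum was 95.6 and 124 CPM in the pregnant libraries and 163 and 60.9 CPM in the non-pregnant libraries. The part of free or attached glial RNA in the called genes was not tested.

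The lists for GABA signalling and excitability held no called gene in edgeR's test, which at 0.491% of all tested genes called is no result about lists of this size. None of 11 tested GABA-A receptor subunit genes, of 6 genes of GABA-B receptors and their partners or of 5 genes of GABA synthesis, packaging and uptake was called, with medians of -0.12, -0.076 and -0.11. The same held for 20 sodium and calcium channel genes, 15 ionotropic glutamate receptor genes, 6 genes of peptides and released proteins and 7 activity-induced genes. Of 9 tested identity markers outside the gate 0 were called, 4 higher and 5 lower, with a median of -0.15. At an unadjusted p under 0.05, 690 of all 8955 tested genes would have passed.

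The effect of pregnancy was then set against that in the other GABAergic-gated nuclei of the same mice. The edgeR model held the mouse as a block, class, and the interaction of class with pregnancy. Pregnancy had no term of its own, since the mouse block takes it up. The other GABAergic nuclei include those that narrowly missed the Lamp5 gate. Nuclei left out only for having no Lamp5 UMI numbered 12 and 13 in the pregnant libraries and 22 and 19 in the non-pregnant libraries. Those left out at 1 Sv2c UMI numbered 7 and 12 in pregnant and 10 and 10 in non-pregnant libraries. Their part in the effects below was not tested. Of 13793 genes tested, 43 were called (0.312%), 32 with the effect higher and 11 with it lower in Lamp5-gated nuclei, and 23 of the 44 genes called in Lamp5-gated nuclei were among them. The effect for Chrna7 differed by 0.86 between the classes and was not called (adjusted p = 0.322 in edgeR's test). Among the genes named, Rxfp1 had the smallest p. In the other GABAergic nuclei it had 26.9 and 31.9 CPM in the pregnant libraries, against 45.4 and 46.7 in the non-pregnant libraries, and fell there (log2 fold change -0.64, adjusted p = 0.0202 in edgeR's test). The difference between the effects was 1.42 (SE 0.182, adjusted p = 2.46e-05). Vip-gated nuclei, the other gate in which Rxfp1 was abundant, had 150.5 and 134 CPM in the pregnant libraries, against 183 and 184 in the non-pregnant libraries. Excitatory nuclei had 23.9 and 22.4 CPM in the pregnant libraries, against 11.6 and 15.5 in the non-pregnant libraries. Vip-gated and excitatory nuclei were described and not tested.

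The other genes named by smallest p were of 2 kinds. Ano4, Ncam2, Tmem196 and Col25a1 rose in Lamp5-gated nuclei and were not called in the other GABAergic nuclei. Their effects differed by 2.18, 0.74, 1.32 and 1.38 (adjusted p = 3.57e-05, 3.06e-04, 3.07e-04 and 3.03e-04 in edgeR's test). In the other GABAergic nuclei Ano4 lay at 414 to 448 CPM and Col25a1 at 151 to 209 CPM, above every Lamp5-gated library. There Ncam2 lay lower, at 534 to 686 CPM, and Tmem196 overlapped, at 52.5 to 64.1 CPM. Of other risen genes, Grm7, Schip1, Dock4, Cntn6, Ntm, Satb1, Trpc4, Cntnap5a and Kcnc2 also lay above every Lamp5-gated library there. Zfp804b, Chrna7 and Rxfp1 lay below, and St8sia4, Mir670hg, Camk1d, Mertk, Dpp10 and Grm8 overlapped. Col25a1, a membrane collagen gene, had 91.2 and 76.9 CPM in the pregnant libraries, against 38 and 38.6 in the non-pregnant libraries in Lamp5-gated nuclei (log2 fold change 1.14, SE 0.216, adjusted p = 0.00657). Ndst4, a heparan sulphate sulphotransferase gene, was of the other kind. In the other GABAergic nuclei it had 10.7 and 13.1 CPM in the pregnant libraries, against 25.6 and 31.1 in the non-pregnant libraries, and fell (log2 fold change -1.25, adjusted p = 9.87e-04). In Lamp5-gated nuclei it had 153 and 139 CPM in the pregnant libraries, against 138 and 97.1 in the non-pregnant libraries, and was not called (adjusted p = 0.702). The difference of its effects was 1.57 (adjusted p = 3.07e-04).

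**Figure D4:**
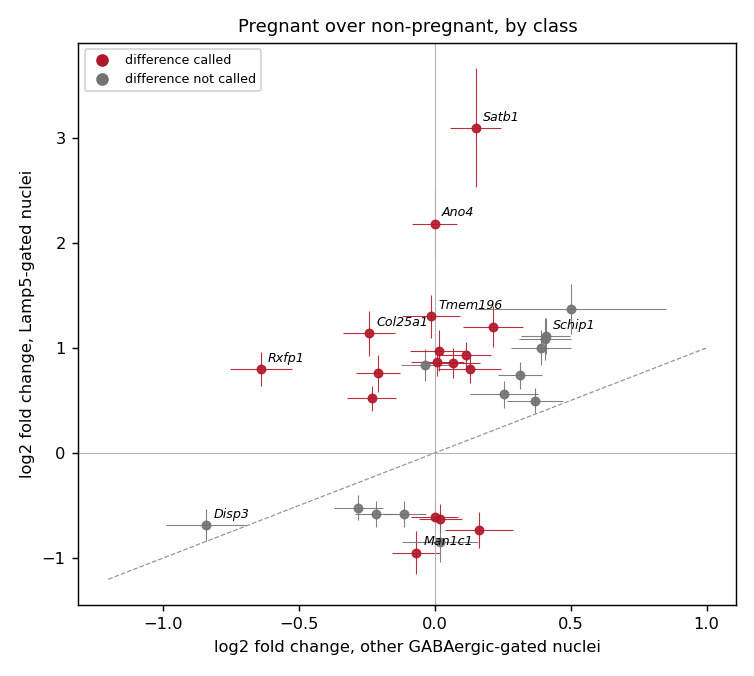
Effect of pregnancy (log2 fold change) in Lamp5-gated (y) against other GABAergic-gated nuclei (x) for 30 called genes, bars 1 SE, dashed line equal effects. Red genes have called differences between the classes. Rxfp1 lies above 0 on y and below 0 on x, and Disp3 is below 0 on both.

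A few genes moved alike in both classes. Of the 44 genes called in Lamp5-gated nuclei, 3 were also called in the other GABAergic nuclei (28 of 14448 tested there, 0.194%): Rxfp1 in opposite directions, and Disp3 and Norad. Disp3, of the dispatched family of sterol-sensing membrane proteins, had 117 and 126 CPM in the pregnant libraries, against 177 and 218 in the non-pregnant libraries in Lamp5-gated nuclei (log2 fold change -0.69, SE 0.154, adjusted p = 0.0323, edgeR's test). In the other GABAergic nuclei it fell by 0.84 on the log2 scale (adjusted p = 0.0202), and the difference of the effects was 0.14 (adjusted p = 0.966). Norad, a noncoding RNA named after its values were seen, rose in both, with log2 fold changes of 1.25 in Lamp5-gated and 1.42 in the other GABAergic nuclei (adjusted p = 0.0263 and 6.84e-05 in edgeR's test). Without the mouse block 6 genes were called in place of 43, among them Rxfp1, Ano4, Col25a1, Mertk and Ndst4.

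Satb1 and Sox6 are transcription factor genes of the medial ganglionic eminence lineage, where they act after Lhx6 in Pvalb and Sst interneurons. Satb1 had 36.9 and 16.3 CPM in the pregnant libraries, against 2.0 and 3.96 in the non-pregnant libraries in Lamp5-gated nuclei and rose (log2 fold change 3.09, SE 0.566, adjusted p = 0.00472, edgeR's test). It passed the count filter only through the pregnant libraries, so a difference could take only that direction. It lay in 7 and 10 nuclei of the pregnant libraries and 2 and 4 of the non-pregnant libraries. In the other GABAergic nuclei its level was 198 to 251 CPM, and in excitatory nuclei 129.7 to 141 CPM. Without the Sox6-bearing nuclei its log2 fold change was 2.04 (adjusted p = 0.321), and with the looser gate (Sv2c at 1 UMI or more) 0.85 (adjusted p = 0.766), neither of them a call in edgeR's test. Of 29 tested interneuron transcription factor genes Satb1 alone was called, beside 0.491% of all tested genes, and the list median was -0.072.

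Sox6 was singled out from earlier results of these data, so its values are a description with no test. Lamp5-gated nuclei held 79 and 31 Sox6 UMIs in the pregnant libraries, against 15 and 5 in the non-pregnant libraries, or 85.8 and 29.8 CPM in pregnant against 15 and 4.95 CPM in non-pregnant libraries. The 110 UMIs in pregnant and 20 in non-pregnant libraries give a ratio of 5.67 per UMI sequenced, pooled over mice. These UMIs sat in few nuclei: 5 and 2 in the pregnant libraries and 2 and 1 in the non-pregnant libraries, 7 of 133 pregnant against 3 of 142 non-pregnant nuclei. The median was 0 in every library. The 7 pregnant nuclei carried 30, 24, 14, 9 and 2 UMIs in replicate 1 and 16 and 15 in replicate 2, and the 3 non-pregnant nuclei 14 and 1 in replicate 1 and 5 in replicate 2. The summed difference is thus a matter of a few nuclei that hold much Sox6, and not of a low level across all Lamp5-gated nuclei.

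**Figure D5:**
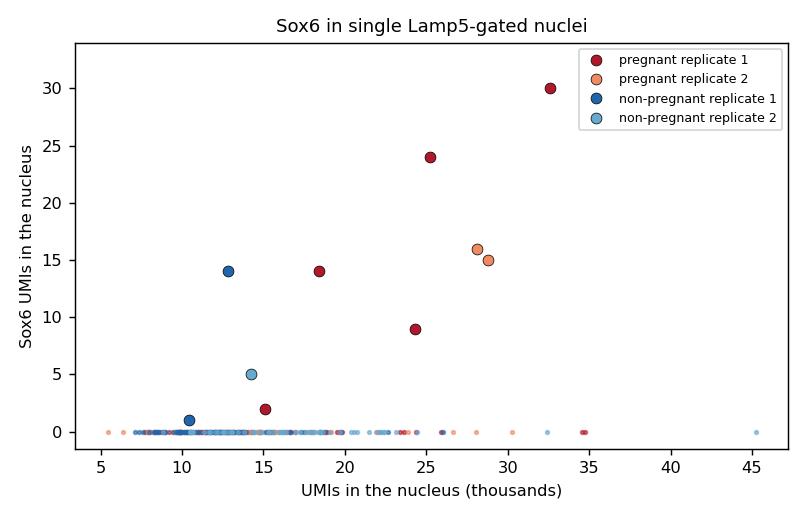
Sox6 UMIs (y) against total UMIs (x, in units of 1000) for the 275 Lamp5-gated nuclei, large points for nuclei with Sox6, red for pregnant and blue for non-pregnant. All but 10 nuclei lie at 0, and the 4 pregnant nuclei with 15 UMIs or more hold 25236 to 32619 UMIs.

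The shares with Sox6 were 7.94% and 2.86% in the pregnant libraries and 2.47% and 1.64% in the non-pregnant libraries. Excitatory nuclei, which should lack Sox6, had it in 3.01% and 3.76% in the pregnant libraries and 2.09% and 2.05% in the non-pregnant libraries, at median depths of 15448 to 20655 UMIs. In 2 libraries, pregnant replicate 2 and non-pregnant replicate 2, the Lamp5-gated share lay below that background. With 3 or more UMIs required, the Lamp5-gated shares were 6.35% and 2.86% in the pregnant libraries and 1.23% and 1.64% in the non-pregnant libraries, and the excitatory shares 1.22% and 1.58% in the pregnant libraries and 0.550% and 0.285% in the non-pregnant libraries. Thinning to 5000 UMIs left the Lamp5-gated shares as they were. Pvalb-gated nuclei had Sox6 in 98.7% to 100% of nuclei, with a median of 14 to 21 UMIs.

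The 7 pregnant Sox6-bearing nuclei were deeper than the median and the 3 non-pregnant ones were near it. The 7 pregnant nuclei held between 1.12 and 2.43 times the median UMIs of the Lamp5-gated nuclei of their library, and the 3 non-pregnant nuclei between 0.876 and 1.07 times. The score marked 0 of the 10 as doublets. The nucleus with 30 Sox6 UMIs had 13 of Satb1, 1 of Lhx6 and 77 of Kcnc2 but 0 of Adarb2, Reln and Kit. The other 6 pregnant nuclei had 55 to 104 Adarb2 UMIs beside their Sox6, and 5 of these 6 had 11 to 146 of Reln. Of the 3 non-pregnant nuclei, those of replicate 1 had 89 and 145 Adarb2 UMIs, with 0 and 2 of Reln and 1 and 0 of Kit. The nucleus of non-pregnant replicate 2 had 1 Adarb2 UMI, 2 of Reln, 0 of Kit, 0 of Npy and 1 of Lhx6. So at least 2 of the 10 nuclei, 1 in each group, had at most 1 Adarb2 UMI and no Kit, and the other 8 carried Adarb2 together with Sox6. Doublets as a source were not tested beyond this score. Sox6 was also seen in 4 and 2 of 64 and 67 Vip-gated nuclei in the pregnant libraries and 5 and 2 of 91 and 61 in the non-pregnant libraries.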

How the data were processed

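The deposited matrices hold whole-number UMI counts for 33696 genes, as the authors' pipeline wrote them. Per the submitters' processing notes this was Cell Ranger 10.0.0 with GRCm39. The sources used here do not give the area of cortex. Free RNA was not subtracted. Nuclei were gated on the raw counts, with the members and gene lists chosen when earlier results of these data were known. Counts were summed per library and fitted with edgeR 4.0.16 (R 4.3.3): TMM scaling, filterByExpr with a minimum count of 10, robust quasi-likelihood fit and adjustment over all tested genes. The difference between classes was fitted with the mouse as a block. DESeq2 1.42.0 was an alternative. The fits were tested on simulated data with 200 changed genes. At a log2 change of 1 the fit on Lamp5-gated nuclei recovered 67% of changed genes, and the fit between classes 28%. At a log2 change of 2 they recovered 98% and 85%. They called 11 and 2 unchanged genes. These runs held 8629 and 8898 genes, against 8955 and 13793 tested in the data. How far these rates hold for the data themselves was not tested. With 1 library per mouse and 2 mice per group, a gene's own spread rests on 2 libraries per group. The fit draws that spread towards a trend shared by all tested genes, so p-values rest on both.

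Doublets were scored against simulated doublets, 2 per nucleus, by 60 neighbours, and the top 5% of each library were marked. Thinned shares rest on a random draw of 5000 UMIs per nucleus that was not repeated, and no Lamp5-gated nucleus was shallower. Named genes are up to 15 rising and 15 falling called genes of smallest p whose groups do not overlap, up to 4 members of each list, the label's markers, and up to 6 genes of the test between classes. Predicted genes are counted and not named. The labels do not say that replicate numbers pair mice, so no replicate block was used. Deviations of same-numbered libraries from their group means had a correlation of -0.0080. With 2 libraries per group both pairs must give this same value, so they are not 2 separate checks. Promoters come from RefSeq, build GRCm38.p6, and no coordinates of the files' build were used.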

Additional observations from a re-analysis of the deposited data

Results flagged for a closer look

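These genes had pregnancy effects that differed between Lamp5-gated and other GABAergic-gated nuclei by edgeR's interaction test. The difference of the log2 effects was 1.42 for the relaxin receptor gene Rxfp1, 2.18 for Ano4, 1.38 for Col25a1, 0.74 for Ncam2, 1.57 for Ndst4 and 1.32 for Tmem196. For Rxfp1 the effects had opposite signs, and both were called. For Ndst4 only the fall in the other GABAergic nuclei was called.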

How the results depend on the processing

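The 44 calls in Lamp5-gated nuclei became 118 with no low-count filter, 20 with a stricter gate, 24 with a looser gate, 2 with the gate on thinned nuclei, 25 with 61 nuclei per library and 13 with DESeq2. Alternatives chosen after seeing the data gave 4 in Reln-bearing nuclei (Ano4 and St8sia4 among the 44), 18 without nuclei over 2 times the median depth and 31 without Sox6-bearing nuclei. Leaving out 1 library gave 3 to 123, the lowest without pregnant replicate 1 and the highest without non-pregnant replicate 1. A replicate block gave 49, 30 of them among the 44. The 43 differences between classes became 101 with no filter, 6 with no mouse block, and 42 to 116 with 1 library left out. The cause of these shifts was not tested.

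Satb1 gave 0.85 with the looser gate. On the gate with thinned nuclei the log2 fold change reversed for Schip1 (-0.15), Cntn6 (-0.083), Grm8 (-0.64) and Reln (-0.25). The difference in the share of Lamp5-gated nuclei reversed there too, from -0.075 to 0.048 percentage points, both with overlapping groups. The Lhx6 share difference reversed on thinned nuclei (-0.82 points). Npy ran from -0.55 to 0.19 with 1 library left out, reversed without non-pregnant replicate 1, and Ndst4 with the looser gate (-0.056). Over the 31 called genes named and all alternatives, 337 values kept the call, 209 kept the sign but not the call, and the 3 above reversed. With 61 to 81 nuclei per library, sparse genes rest on few nuclei.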

Other observations

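Among the 31 called genes that the text names, all 31 had the same direction in Lamp5-gated nuclei with a Reln UMI, with no overlap between groups in 31. The genes were chosen as called in sums that nuclei with Reln mostly make up, so this count is largely fixed by the choice. In nuclei without Reln 28 of the 31 had that direction, with no overlap in 14, beside 37.1% of all tested genes with no overlap in the summed nuclei. The nuclei without Reln numbered 19 and 10 in the pregnant libraries and 28 and 18 in the non-pregnant libraries, so their levels rest on fewer UMIs. This split was made after the values were seen and has no test of its own.

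Markers of Sncg interneurons, a neighbouring class, had a summed level of 333 and 342 CPM in Lamp5-gated nuclei of the pregnant libraries and 268 and 218 CPM in those of the non-pregnant libraries, with no overlap. Of its 4 tested members all were higher in the pregnant group. Only Col25a1 was called by edgeR's quasi-likelihood test, beside 0.491% of all tested genes, and Cck overlapped between the groups. Sncg itself had 0 UMIs in Lamp5-gated nuclei. In the other GABAergic-gated nuclei the Sncg list lay lower in pregnancy, at 352 and 339 CPM in the pregnant and 446 and 365 CPM in the non-pregnant libraries. The summed level of 4 red blood cell genes was 19.5 and 22.1 CPM in the pregnant libraries and 3.0 and 1.98 CPM in the non-pregnant libraries. In the other GABAergic-gated nuclei it was 20.9 and 43.5 CPM in the pregnant libraries and 2.40 and 1.80 CPM in the non-pregnant libraries.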
